A study of Mus musculus with 9 samples.

Results

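The genes described here are the 50 mouse genes named as proteasome subunits, activators or assembly factors (names beginning Psma to Psmg followed by a number) among the 40993 genes of an RNA-seq table. The rule reads names and no measured value, and leaves out 3 names marked as pseudogenes, but proteasome genes were picked as a set with earlier results of these data known. The cells were BV2, an immortalized mouse microglial line, so all libraries come from 1 line. Control cells were non-treated, and treated cells received MNPs@SiO2(RITC), particles with a core of cobalt ferrite and a coat of silica dyed with rhodamine B isothiocyanate, at 10 or 100 µg/ml for 12 h (0.01 and 0.1 µg/µl in the labels). Each of the 3 groups had 3 libraries, and the labels do not say whether these came from separate cultures, so p-values measure the spread between libraries, which may be technical.

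The values are FPKM, fragments scaled by transcript length and library size, and no counts were used. Steps between low values gave an approximate depth of 11.95 to 15.1 M (mega) fragments per library. Of 10 microglia markers, 8 had a mean of at least 1 FPKM, while P2ry12 and Cx3cr1, markers of microglia at rest, stayed below 0.15 FPKM in every library. No listed neuron, astrocyte or oligodendrocyte marker reached a mean of 1 FPKM. Libraries of a group differed in the level of the members. Against the mean of their 2 partners, 10 µg/ml replicate 3 had 38 of the 48 tested proteasome genes higher, control replicate 1 had 35 and control replicate 3 had 10. The medians were 0.077, 0.055 and -0.078 in the same order, on the log2(FPKM + 1) scale. One library stood furthest apart. In 100 µg/ml replicate 1, 45 of the 48 tested proteasome genes were above the mean of the other 2 libraries at 100 µg/ml, by a median of 0.26 on the log2(FPKM + 1) scale, while the median of all genes tested was 0.028. Values at 100 µg/ml are therefore also given without this library.

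The proteasome is the cell's main machine for degrading ubiquitin-tagged proteins. Its 20S core is a barrel of alpha rings, which gate the entrance, and beta rings, of which the Psmb5, Psmb6 and Psmb7 products cut peptide chains. A 19S cap of ATPases (Psmc) and other subunits (Psmd) recognizes, unfolds and feeds in the substrate, while Psme activators open the core in the place of the cap and Psmg chaperones help to build it. In immune cells, and most strongly under interferon, Psmb8, Psmb9 and Psmb10 products can replace the standard cutting subunits and shift the peptides made towards those that MHC class I displays.

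Reads do not separate every member from its copies, and the activator pair Psme2 and Psme2b is the clearest case. Psme2 (chr14:55587441-55591113, minus strand, GRCm38) has 11 coding exons, whereas Psme2b has 1. Their coding sequences in GENCODE M21 are both 717 bases long and are identical at 712 positions (99.3%).

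Upstream sequence was read because an antioxidant response element, the site class bound by NRF factors that drive proteasome genes, can be searched by its letters. Of the standard cutting subunits, Psmb5 and Psmb6 had promoter windows, while Psmb7 had none and was not searched. Windows matched 42 of the 50 member genes, and Psmb1, Psmb2, Psmc3, Psmd3, Psmd7 and Psmg2 were among the others without one. A gene without a window was not searched. TGACNNNGC, on either strand, was found in the windows of Psmb5, Psmb6, Psmc6, Psmd12, Psmd9 and Psme4. That is 6 of the 45 RefSeq promoter windows that matched 42 member genes (13.3%), beside 12.4% of all 32851 windows (250 bases before to 50 after the start, GRCm38.p6). The 80 bases before any annotated exon of Psmb5 (chr14:54618023-54618102, minus strand) and Psmb6 (chr11:70525277-70525356, plus strand) are printed with this motif in capitals.
Psmb5: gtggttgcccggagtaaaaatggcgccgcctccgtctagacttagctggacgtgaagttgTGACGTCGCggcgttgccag
Psmb6: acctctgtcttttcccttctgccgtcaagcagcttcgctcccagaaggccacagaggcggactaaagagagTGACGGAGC
An interferon-stimulated response element, searched as 2 copies of GAAA with any 2 bases between them, was in 5 member windows (Psmb3, Psmd4, Psmd9, Psme1 and Psmg4, 11.1%) and in 3.44% of all windows. The letters TTCCNNGAA of a gamma-activated sequence were in those of Psmb8 and Psmd2 (4.44%, beside 4.81% of all). A match describes the letters and is not a measured site.

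The genes of the proteasome were among the well expressed genes of these cells. Together the members took 0.923% to 0.961% of the summed FPKM in control libraries, 0.937% to 0.965% at 10 µg/ml and 0.904% to 0.978% at 100 µg/ml. In control cells the 7 tested alpha ring genes had a median of 141 FPKM, from Psma5 at 56.7 ± 2.59 to Psma6 at 203 ± 18.5 (SD, n = 3). The 7 standard beta ring genes had a median of 165 FPKM, from Psmb1 at 73.8 ± 5.23 to Psmb7 at 240 ± 8.39 FPKM (SD, n = 3). The 6 cap ATPases had a median of 109 FPKM and the 11 other cap subunits one of 105 FPKM. Psmd2, which encodes the scaffold subunit that docks ubiquitin receptors on the cap, was the highest member at 320 ± 3.10 FPKM (SD, n = 3).

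A pair of members was below the filter of a mean of 1 FPKM over the 9 libraries and was not tested. Psma8, the alpha subunit of the testis, was listed at 0 in every library, and Psmb11, the beta subunit of the thymus cortex, ranged from 0 to 0.0338 FPKM. Psmc3ip matched the naming rule, but its product acts in meiotic recombination and is not a subunit. It was at 10.8 ± 0.685 FPKM in control cells and 11.2 ± 1.55 FPKM at 100 µg/ml (SD, n = 3). The other 47 tested members form the groups described next.

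**Figure D1:**
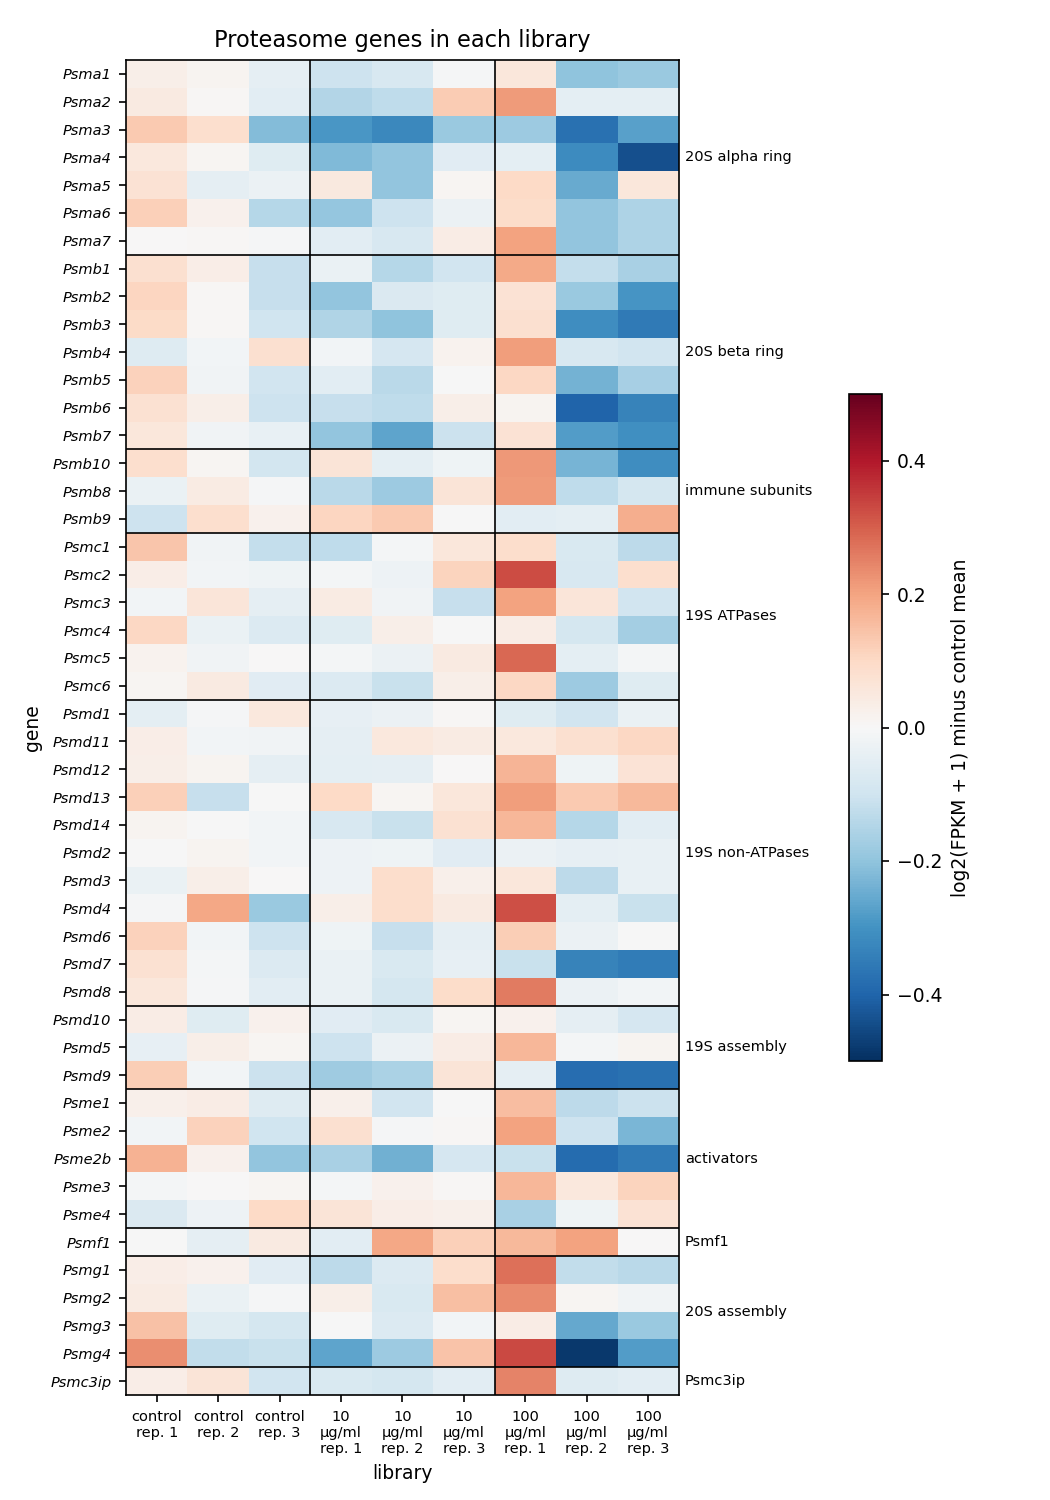
Each row is one of the 48 tested genes and each column a library, with control first and the higher dose last. Colour gives log2(FPKM + 1) minus the mean of the 3 control libraries, with red above and blue below it, and the scale ends at 0.5 either way. Replicate 1 at 100 µg/ml is the highest of its group in 43 of the 48 rows, and most 20S rows are blue in the other 2 libraries.

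Whether the higher dose altered proteasome transcripts was tested with limma on log2(FPKM + 1), with Benjamini-Hochberg adjustment over all 11161 genes tested. At 100 µg/ml against control, none of the 48 members passed an adjusted p of 0.05, while 2.11% of all genes did. At an unadjusted p under 0.05 there were 7 members (14.6%), beside 19.4% of all genes. Of these, 2 were higher (9.67% of all genes) and 5 lower (9.69% of all genes). The libraries of the groups did not overlap in 5 members (10.4%), beside 23.8% of all genes. Log2 fold changes of members ran from -0.28 (Psme2b) to 0.17 (Psmd13), with an SD over members of 0.12, whereas that over all genes tested was 0.27. The median member was at -0.036 and the median gene at -0.0016. In bulk RNA, fewer cells carrying a transcript and less of it per cell cannot be told apart.

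Leaving out single libraries moved these counts in both directions. Replicate 1 at 100 µg/ml was singled out because most members were high in it, so leaving it out lowers the members by construction, and the values without it describe that choice and are no support for lower members. Without it 5 members passed the adjusted threshold, each with a log2 fold change below 0, namely Psma4, Psmb3, Psmb6, Psmb7 and Psmd7, beside 4.83% of all genes (3.12% lower). A total of 15 members (31.2%) had an unadjusted p under 0.05, all of them lower, beside 24.3% of all genes and 12.9% lower. In this fit 39 of the 48 members were below 0 (81.2%, beside 49.5% of all genes), and the median log2 fold change was -0.10. Without replicate 2 instead, 21 of 48 were below 0, none passed the adjusted threshold (1.38% of all genes did), and 4 had an unadjusted p under 0.05, of which 3 were higher and 1 lower, beside 19.7% of all genes. Without replicate 3, 24 of 48 were below 0, none passed (0.699% of all genes) and 2 had such a p, both lower, beside 17% of all genes. The median of the members ran from -0.10 to 0.022 over the libraries left out.

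The deviation of that library went with transcript length. Across 11076 genes Spearman's rho between the longest transcript and the library's difference from its 2 partners was -0.60, and across the 48 members it was -0.52. Other libraries showed smaller correlations of either sign across all genes, from -0.34 in 10 µg/ml replicate 3 and -0.26 in control replicate 1 to 0.25 in control replicate 3. Replicates 2 and 3 at 100 µg/ml, each compared with a pair that includes replicate 1, were at 0.49 and 0.43. Across the 48 members rho was -0.41 in control replicate 1, 0.47 in control replicate 3 and -0.23 in 10 µg/ml replicate 3. These correlations are across genes, which share the library and are not replicates. The 31 members shorter than 2 kb were a median of 0.28 higher in 100 µg/ml replicate 1, beside 0.24 for all genes of that length. The 17 longer members were 0.14 higher, beside -0.038 for all longer genes. Psmb10 was 0.49 and Psmb3 0.41 higher in it, while Psme4, the longest member, was at -0.19. One alternative, chosen after the data were seen, was a loess correction of each library for length and GC content. With it Psma4 and Psmd7 passed the adjusted threshold (adjusted p = 0.044 and 0.016), beside 6.2% of all genes. Psmb3, Psmb6 and Psmb7, which passed without 100 µg/ml replicate 1, did not pass with the correction (adjusted p = 0.19, 0.090 and 0.25). The median member was then at -0.023 and 28 of 48 were below 0, beside 5339 of all 11161 genes.

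**Figure D2:**
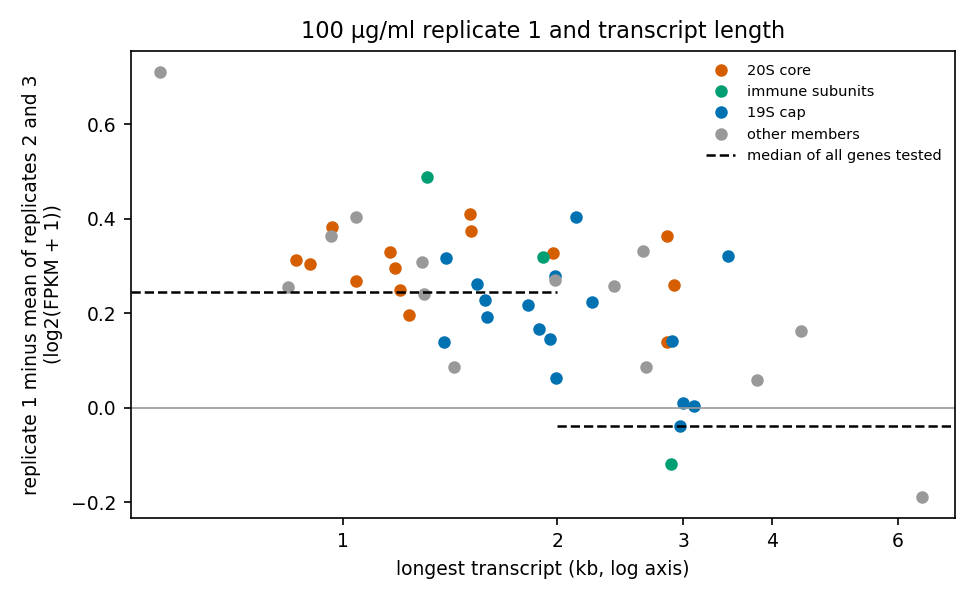
Each point is a tested member, placed by its longest transcript (kb, log axis) and by 100 µg/ml replicate 1 minus the mean of replicates 2 and 3, in log2(FPKM + 1). Dashed lines give the median of all genes tested below and above 2 kb, at 0.24 and -0.038, and most members below 2 kb lie near or above the first.

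Of the classes with more than 1 tested gene, the 20S core had the lowest median log2 fold change against control at both doses, while between the doses the activators had the lowest (-0.070, and -0.014 for the core). The lowest single value at 100 µg/ml was that of Psme2b, an activator gene. Of its 14 tested standard subunits, 12 had a log2 fold change below 0 at the higher dose, beside 50.4% of all genes, and all 14 at the lower, beside 49.8%. At 100 µg/ml the core had a median log2 fold change of -0.11 and the 17 cap subunits one of 0.032, and the corresponding medians for 10 µg/ml were -0.080 and -0.021. No core gene passed the adjusted threshold with all libraries, and none had groups that did not overlap at 100 µg/ml. Without 100 µg/ml replicate 1, all 14 core genes were below 0 with a median of -0.20, and 9 of 14 (64.3%) had an unadjusted p under 0.05. The cap median was then -0.040 with 1 of 17 (5.88%), and 24.3% of all genes had such a p. These values carry the same limit, since that library was chosen for its high members, and the core median ran from -0.20 to -0.049 over all libraries left out. With the length and GC correction of all libraries the core median was -0.097 and the cap median 0.040. The difference between core and cap was not tested.

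In the alpha ring, Psma3 and Psma4 had the lowest log2 fold changes at 100 µg/ml. Psma3 was at 176, 170 and 138 FPKM in control libraries, at 131, 128 and 141 FPKM at 10 µg/ml and at 141, 123 and 133 FPKM at 100 µg/ml. Control replicate 3 lay among the treated libraries, so the groups overlapped. The log2 fold change was -0.28 ± 0.095 (SE, adjusted p = 0.16) at 100 µg/ml and -0.27 ± 0.095 (adjusted p = 1) at 10 µg/ml. Psma3 shared 15.4% of its 50-base stretches with other genes, and Gm13835, the gene that shared the most, was listed at 162 FPKM on average. Gm13835 itself had a mean of 151 FPKM in control and 172 FPKM at the higher dose, a difference of 0.17 ± 0.11 on the log2 scale (SE, adjusted p = 0.46), so reads divided between both genes leave the value of Psma3 uncertain.
Psma4 was at 91.7, 89.1 and 84.7 FPKM in control libraries, at 75.9, 77.03 and 84.9 FPKM at 10 µg/ml and at 85.5, 70.9 and 64.9 FPKM at 100 µg/ml. Of the libraries at 100 µg/ml, replicate 1 lay within the control range and the others below it. At 100 µg/ml the log2 fold change of Psma4 was -0.27 ± 0.096 (SE, adjusted p = 0.17). Without replicate 1, a library singled out for its high members, it was -0.38 ± 0.065 (adjusted p = 0.026). Psma4 shared 14.3% of its 50-base stretches with other genes. Gm6542, the gene that shared the most, had a mean of 18.4 FPKM and a log2 fold change of -0.24 (adjusted p = 0.28). Psma5, the tested member of the ring with the lowest mean FPKM, differed from control by -0.032 on the log2 scale at the higher dose, and 49.96% of its 50-base stretches occur in other genes, among them the pseudogene Gm8394 with a mean of 99.1 FPKM, so its level is uncertain. Psma6, the one with the highest mean FPKM, differed by -0.087 (adjusted p = 0.66).

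Among the standard cutting subunits, Psmb6, which carries the caspase-like activity, had the lowest log2 fold change at 100 µg/ml. It was at 229, 221 and 202 FPKM in control libraries, at 201, 199 and 222 FPKM at 10 µg/ml and at 219, 164 and 172 FPKM at 100 µg/ml. Replicates 2 and 3 at 100 µg/ml were the lowest of all 9 libraries, and replicate 1 lay within the control range. The log2 fold change at 100 µg/ml was -0.24 ± 0.11 (SE, adjusted p = 0.26). Without replicate 1, a library singled out for its high members, it was -0.37 (adjusted p = 0.032). With the length and GC correction it was -0.21 (adjusted p = 0.090).
Psmb7, the subunit of the trypsin-like activity, was at 250, 237 and 234 FPKM in control libraries, at 209, 200 and 223 FPKM at 10 µg/ml and at 252, 198 and 194 FPKM at 100 µg/ml. All 3 libraries at 10 µg/ml were below all controls, with a log2 fold change of -0.19 ± 0.098 (SE, adjusted p = 1), and at 100 µg/ml replicate 1 was above them. The value at 100 µg/ml was -0.17 (adjusted p = 0.38). It was -0.29 without replicate 1 (adjusted p = 0.030), under the same limit, and -0.18 with the length and GC correction (adjusted p = 0.25).
Psmb5, the subunit of the chymotrypsin-like activity, was at 168, 153 and 145 FPKM in control libraries, at 149, 141 and 154 FPKM at 10 µg/ml and at 167, 131 and 138 FPKM at 100 µg/ml. The groups overlapped at both doses, and the log2 fold change was -0.063 at 10 and -0.099 at 100 µg/ml (adjusted p = 0.61 at the latter). Of its 50-base stretches, 54.1% occur in other genes. The structural subunit Psmb3 was at 107 ± 7.33 FPKM in control cells and 94.2 ± 16.3 FPKM at 100 µg/ml (SD, n = 3, adjusted p = 0.38). The adjusted p was 0.037 without replicate 1, under the same limit, and 0.19 with the length and GC correction. Psmb3 shared 17.8% of its 50-base stretches with other genes. Psmb1 differed by -0.030.

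The immune subunits were expressed below their standard counterparts at every dose, and none of the 3 passed the test in any comparison. Psmb8 (chr17:34197721-34201454) was at 53.8, 56.8 and 54.97 FPKM in control libraries, at 50.1, 48.6 and 57.8 FPKM at 10 µg/ml and at 64.1, 50.5 and 51.9 FPKM at 100 µg/ml. Its highest library was 100 µg/ml replicate 1, and the groups overlapped at both doses. At 100 µg/ml Psmb8 differed by -0.00065 on the log2 scale, with a 95% interval from -0.22 to 0.22.
Psmb10 (chr8:105935728-105938392) was at 19.9, 18.9 and 17.5 FPKM in control libraries, at 19.7, 18.1 and 18.5 FPKM at 10 µg/ml and at 22.0, 15.8 and 14.9 FPKM at 100 µg/ml. Here the libraries at 100 µg/ml lay on both sides of the controls, with replicate 1 above and the others below. The log2 fold change was -0.11 (95% interval from -0.39 to 0.18). Without replicate 1, a library singled out for its high members, it was -0.27 ± 0.066 (SE, adjusted p = 0.063).
Psmb9 (chr17:34181988-34187764) was the lowest of the tested core subunits, at 1.88, 2.29 and 2.14 FPKM in control libraries, at 2.33, 2.39 and 2.097 FPKM at 10 µg/ml and at 1.99, 1.996 and 2.51 FPKM at 100 µg/ml. These values correspond to about 84 fragments per library at 100 µg/ml, and the groups overlapped. At 100 µg/ml Psmb9 differed by 0.026 on the log2 scale (95% interval from -0.22 to 0.27).

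**Figure D3:**
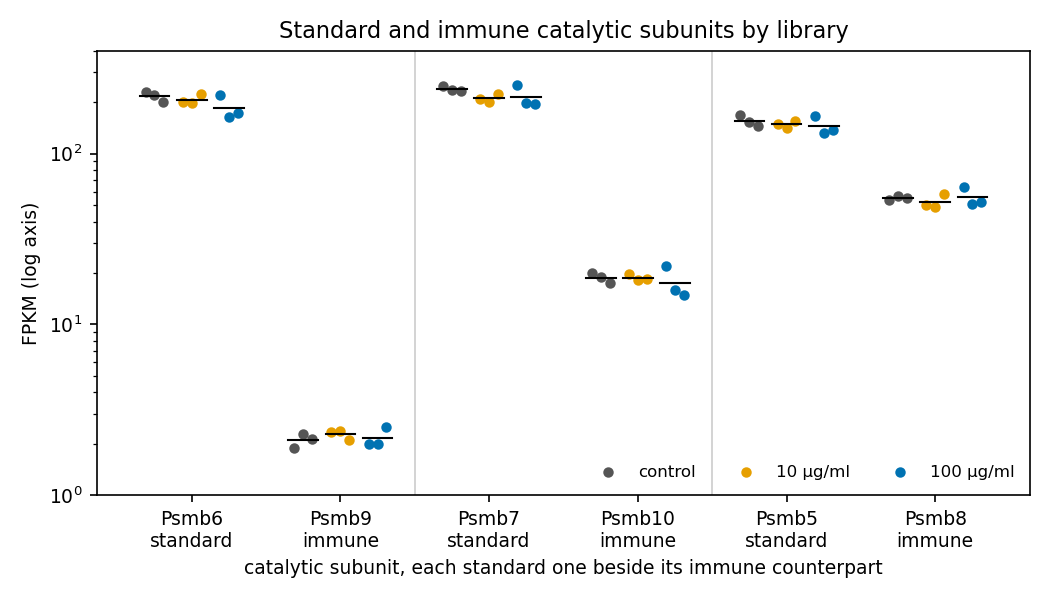
FPKM on a log axis for the 3 standard cutting subunits, each beside its immune counterpart. Points are libraries, coloured by dose, and bars are group means. Psmb9 lies near 2 FPKM and Psmb6 near 200 FPKM in every group, and the libraries of every immune subunit overlap between control and each dose.

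The balance of immune to standard subunits was then compared within each library as a ratio of FPKM, which removes the overall scaling of a library. It does not remove the trend with transcript length, and the paired genes differ in their longest transcript. These were 2884 bases for Psmb9 and 966 for Psmb6, 1311 for Psmb10 and 2849 for Psmb7, and 1907 for Psmb8 and 899 for Psmb5. Psmb8 stood at 35.7 ± 3.18% of Psmb5 in control cells, 35.1 ± 2.01% at 10 µg/ml and 38.2 ± 0.465% at 100 µg/ml (SD, n = 3). Psmb10 stood at 7.83 ± 0.280%, 8.93 ± 0.567% and 8.15 ± 0.515% of Psmb7 in the same order, and all 3 libraries at 10 µg/ml (9.41, 9.08 and 8.30%) were above the highest control library (7.99%). Psmb9 stood at 0.972 ± 0.131%, 1.10 ± 0.139% and 1.19 ± 0.277% of Psmb6. At 10 µg/ml against control the log2 fold change was -0.0018 for Psmb10 itself and -0.19 for Psmb7. The ratio of Psmb8 to Psmb5 also did not overlap between the doses, at 38.5, 38.4 and 37.6% at 100 µg/ml and at most 37.4% at 10 µg/ml. In two-sided exact permutation tests of the log2 ratio, the 9 comparisons gave p from 0.1 to 0.9 and adjusted p from 0.45 to 0.9, where 0.1 is the smallest that 3 against 3 libraries can give. The largest shift was 0.28 on the log2 scale, for Psmb9 over Psmb6 at 100 µg/ml (exact permutation p = 0.3), with overlapping groups. This shift ran from 0.12 to 0.46 over the libraries left out. At 100 µg/ml the ratio was 0.906% in replicate 1, 1.22% in replicate 2 and 1.46% in replicate 3. Against the mean of replicates 2 and 3, replicate 1 was at -0.12 for Psmb9 and 0.38 for Psmb6 on the log2(FPKM + 1) scale. A part of transcript length in these ratios was not tested.

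The 19S cap held the member with the smallest adjusted p. Psmd7 (chr8:107580381-107588482), which encodes the partner of the Psmd14 deubiquitinase, was at 147, 138 and 132 FPKM in control libraries, at 135, 132 and 135 FPKM at 10 µg/ml and at 128, 110 and 109 FPKM at 100 µg/ml. All 3 libraries at 100 µg/ml were below every library of the other groups. The log2 fold change was -0.27 ± 0.071 (SE, adjusted p = 0.092) against control and -0.21 ± 0.071 (adjusted p = 0.22) against 10 µg/ml. Without replicate 1, a library singled out for its high members, it was -0.34 ± 0.047 (adjusted p = 0.014) against control. With quantile normalization it also passed the threshold. Against control Psmd7 passed in 4 of 17 alternatives, with an adjusted p of up to 0.26. None of its 50-base stretches occur in other genes.
Psmd13, a structural subunit of the lid, was at 69.2, 58.7 and 63.7 FPKM in control libraries, at 68.3, 64.1 and 66.4 FPKM at 10 µg/ml and at 73.9, 69.9 and 71.4 FPKM at 100 µg/ml. Its libraries at 100 µg/ml were the highest of the 9, with a log2 fold change of 0.17 ± 0.064 (SE, adjusted p = 0.20). Psmd11, another lid subunit, had a value of 0.078 (adjusted p = 0.40), also without overlap.
Psmd2 varied least. Its control libraries were at 319, 323 and 317 FPKM and those at 100 µg/ml at 313, 310 and 311 FPKM. The groups did not overlap, and the log2 fold change was only -0.036 (adjusted p = 0.67). The ATPases, which form the motor of the cap, ran from -0.074 to 0.11 at 100 µg/ml, and neither Psmc1, the highest of them (141 ± 12.9 FPKM in control cells), nor Psmc2, the lowest (74.0 ± 1.55 FPKM; SD, n = 3), passed the test.

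Of the 3 chaperones that help to assemble the cap, Psmd9 was at 20.1, 18.2 and 17.0 FPKM in control libraries and 17.8, 13.9 and 14.0 FPKM in those of 100 µg/ml. Replicates 2 and 3 at 100 µg/ml were below all other libraries, and the log2 fold change was -0.27 ± 0.11 (SE, adjusted p = 0.24). Psmd5 and Psmd10 differed by 0.056 and -0.035 on the log2 scale.

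Activators differed among themselves. Psme3, the subunit of the nuclear activator that works without ubiquitin, was at 122, 123 and 124 FPKM in control libraries, at 122, 125 and 124 FPKM at 10 µg/ml and at 139, 128 and 133 FPKM at 100 µg/ml. Every library at 100 µg/ml was above the other 6, with a log2 fold change of 0.11 ± 0.045 (SE, adjusted p = 0.23) against control and 0.10 (adjusted p = 0.35) against 10 µg/ml.
Psme2b was at 96.6, 86.7 and 74.4 FPKM in control libraries, at 76.1, 72.1 and 80.5 FPKM at 10 µg/ml and at 78.9, 65.2 and 66.7 FPKM at 100 µg/ml. Control replicate 3 lay within the range of treated libraries, and the log2 fold change at 100 µg/ml was -0.28 ± 0.11 (SE, adjusted p = 0.19).
Psme2, which with Psme1 forms the interferon-inducible activator, was at 11.6, 12.7 and 10.8 FPKM in control libraries and 13.6, 10.8 and 9.85 FPKM in those of 100 µg/ml, with a log2 fold change of -0.043 (adjusted p = 0.86). As listed, Psme2b was at 734 ± 87.3% of Psme2 in control cells and 620 ± 50.5% at 100 µg/ml (SD, n = 3). With coding sequences that differ at 5 bases, the division of fragments between these genes rests on the authors' correction for multiple mapping and is uncertain. Psme1 was at 42.2 ± 1.65 FPKM in control cells and 41.6 ± 4.76 FPKM at 100 µg/ml, and Psme4, the activator of the nucleus and testis, at 33.1 ± 2.12 and 32.3 ± 2.71 FPKM (SD, n = 3).
Psmf1, an inhibitor of the core, was at 14.7, 14.3 and 15.3 FPKM in control libraries and 16.6, 17.1 and 14.8 FPKM in those of 100 µg/ml, with overlapping groups and a log2 fold change of 0.12 (adjusted p = 0.45).

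Among the assembly chaperones of the core, Psmg4 was the member with the largest standard error of all. It was at 35.5, 27.6 and 27.8 FPKM in control libraries and 38.0, 21.2 and 24.6 FPKM in those of 100 µg/ml, where replicate 1 was the highest and replicate 2 the lowest of the 9. Its log2 fold change was -0.15 ± 0.20 (SE, adjusted p = 0.75). Psmg1, Psmg2 and Psmg3, at 42.6, 33.9 and 42.9 FPKM in control cells, differed by 0.0059, 0.075 and -0.13 at 100 µg/ml, and none of them passed the test. All 4 were highest at 100 µg/ml in replicate 1, and without it their median moved from -0.064 to -0.17.

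**Figure D4:**
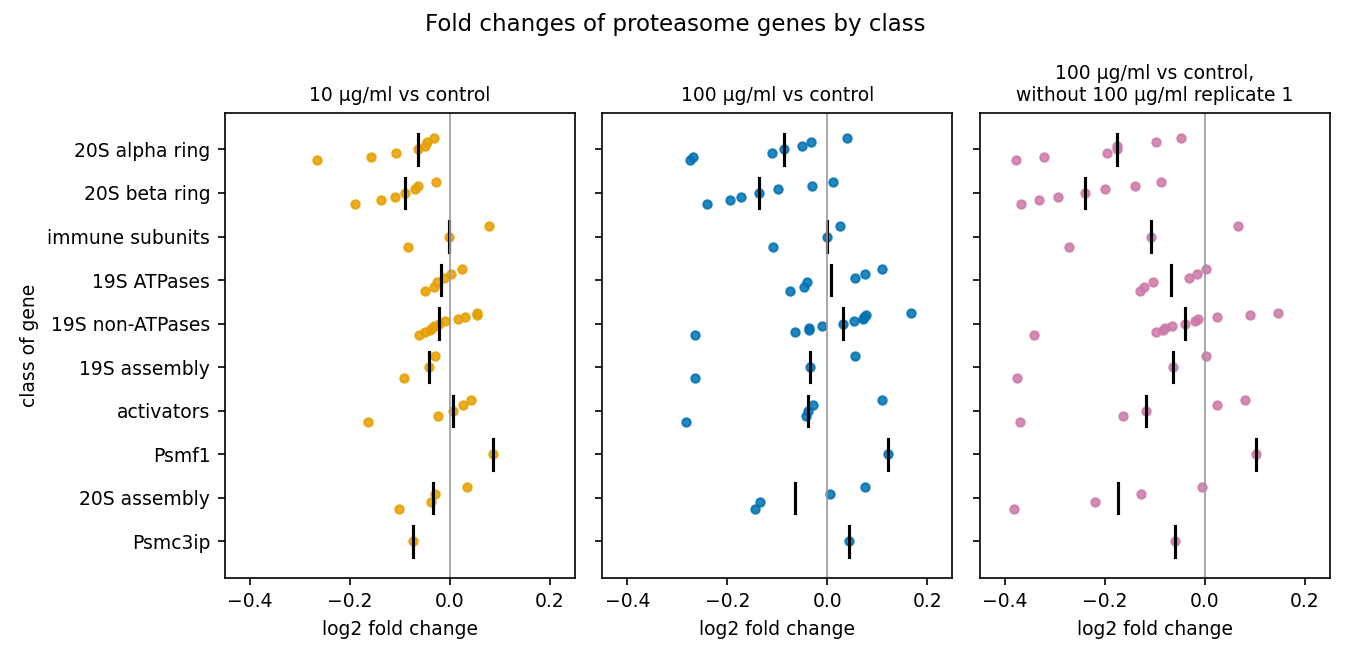
Log2 fold changes on the log2(FPKM + 1) scale for the tested members of each class (points) and the class median (black bar), at 10 µg/ml, at 100 µg/ml and at 100 µg/ml without its replicate 1. The 14 core genes of the upper 2 rows lie left of 0 in the first and last panels, and Psmf1 lies right of 0 in all panels.

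At 10 µg/ml against control no member passed the adjusted threshold, and 0% of all genes did. One member, Psma3, had an unadjusted p under 0.05 and was lower (2.08%, beside 3.28% of all genes and 1.54% lower). In 2 members, Psmb7 and Psmd2, both lower, the groups did not overlap (4.17%, beside 10.7% of all genes and 4.61% lower). Log2 fold changes ran from -0.27 to 0.086 with an SD of 0.069, while that of all genes was 0.24. A total of 36 of 48 members were below 0, with a median of -0.034.
Between the doses, 100 against 10 µg/ml, no member passed the adjusted threshold, and 0.851% of all genes did. Psmd7 was lower and Psme3 higher at an unadjusted p under 0.05 (4.17%, beside 14.3% of all genes), and 3 members, these and Psmd13, had groups without overlap (6.25%, beside 19.4%). The median member was at 0.0020, with 24 members below and 24 above 0. Without 100 µg/ml replicate 1, a library singled out for its high members, 38 members were below 0. Psmd7 then passed the threshold (-0.29 on the log2 scale, adjusted p = 0.031), beside 1.71% of all genes. With the length and GC correction Psmd7 passed as well, beside 2.44% of all genes.

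The genes that act around the proteasome were counted from lists chosen for their known roles. Among 18 tested partners (ubiquitin receptors, deubiquitinases and assembly factors such as Pomp), 1 was higher and none lower at 100 µg/ml, beside 0.708% of all genes higher and 1.41% lower. That gene was Rad23b, a shuttle that carries ubiquitinated proteins to the cap. It was at 116, 113 and 113 FPKM in control libraries, at 123, 119 and 115 FPKM at 10 µg/ml and at 139, 132 and 137 FPKM at 100 µg/ml. All libraries at 100 µg/ml were above all others, and Rad23b rose by 0.26 ± 0.045 on the log2 scale (SE, adjusted p = 0.028). It passed in 11 of 17 alternatives, with an adjusted p of up to 0.12 (without control replicate 2).
Usp14, a deubiquitinase bound to the cap, was at 113, 117 and 112 FPKM in control libraries and 131, 125 and 125 FPKM in those of 100 µg/ml. These groups did not overlap either, but the log2 fold change of 0.15 ± 0.044 missed the threshold (SE, adjusted p = 0.11).

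Among 13 tested regulators of proteasome genes and of their activation, 5 had an unadjusted p under 0.05 at 100 µg/ml (38.5%, beside 19.4% of all genes). Of these, 1 was higher and 4 lower, and the list as a set was not tested. At the adjusted threshold none was higher and 1 was lower, beside 0.708% of all genes higher and 1.41% lower. Ufd1l, a cofactor of the Vcp segregase that extracts proteins for degradation, was at 27.7, 28.8 and 32.0 FPKM in control libraries, at 26.7, 26.0 and 28.1 FPKM at 10 µg/ml and at 22.4, 22.0 and 22.6 FPKM at 100 µg/ml. The libraries at 100 µg/ml were the lowest of the 9, and Ufd1l fell by 0.39 on the log2 scale (SE 0.063, adjusted p = 0.020). It too passed in 11 of 17 alternatives, with an adjusted p of up to 0.090 (with only the 6 libraries compared). Nfe2l1, the transcription factor that raises proteasome genes when the proteasome is impaired, was at 136, 146 and 146 FPKM in control libraries and 93.5, 124 and 112 FPKM in those of 100 µg/ml. All 3 were below every control, with a log2 fold change of -0.39 ± 0.10 (SE, adjusted p = 0.086). Unlike most members, its lowest library was 100 µg/ml replicate 1, and without that library the value was -0.28. Over 17 alternatives Nfe2l1 ran from -0.48 to -0.28 and passed in 2, with adjusted p from 0.018 to 0.24. Nfe2l2, and Irf1 and Nlrc5, which act on immune subunits and class I genes, did not pass the test. The libraries of Irf1 at 100 µg/ml lay below all others, with a log2 fold change of -0.17 (adjusted p = 0.25) against control. Groups at 100 µg/ml and control did not overlap in 23.8% of all genes.

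Of 9 ubiquitin genes and enzymes none passed, beside 2.11% of all genes at 100 µg/ml. At that dose 1 of them (11.1%) had an unadjusted p under 0.05, beside 19.4% of all genes. Of 11 tested genes of class I presentation, for which immune subunits supply peptides, none passed either, and 1 (9.09%) had such an unadjusted p. The log2 fold changes of these genes at 100 µg/ml ran from -0.13 (Erap1, which trims peptides) to 0.083 (H2-D1, a class I heavy chain). B2m, the light chain, was at 732 FPKM in control cells and 679 FPKM at 100 µg/ml on average (adjusted p = 0.58).

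**Figure D5:**
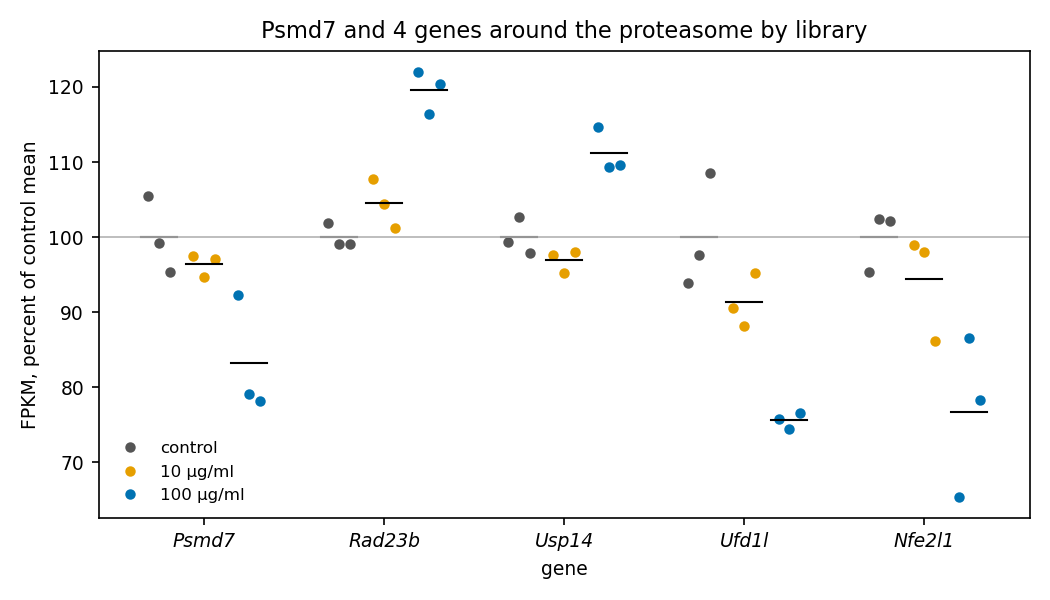
FPKM of Psmd7 and of 4 genes around the proteasome as a percentage of the control mean, with 1 point per library and bars at group means. At 100 µg/ml all libraries of Rad23b and Usp14 lie above the controls, and all of Psmd7, Ufd1l and Nfe2l1 below. The 4 genes were named after their values were seen, and these groups did not overlap in 23.8% of all genes. Psmd7, Usp14 and Nfe2l1 did not pass the adjusted threshold.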

How the data were processed

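The 9 libraries of BV2 RNA were grouped by the treatment in their labels. Per the methods and labels, the authors discarded reads of low quality, mapped the remainder with TopHat and derived FPKM per gene with Cufflinks 2.1.1 against Ensembl release 77, correcting for fragment bias and multiple mapping. Libraries were stranded and selected on oligo(dT). FPKM gives no counts, so depth is approximate. It was fitted to low values, and 78.0% of 3223 of them were then whole fragments to a tolerance of 0.25. Chance gives 50% only for a depth fixed beforehand, so this share does not test the depth. Genes whose 9 libraries averaged 1 FPKM or more entered limma 3.58.1 (R 4.3.3) as log2(FPKM + 1), with a pseudocount of 1, the 3 groups in one fit and the trend option of eBayes, and fold changes understate those of low genes. Two-sided exact permutation tests used scipy 1.17.1. Shared stretches of 50 bases, transcript lengths and coding sequences came from GENCODE M21 (35 of 50 members have identical coordinates there), and promoters from RefSeq. The procedure was tested on simulated data.
The members, lists and the rule for naming genes were chosen with earlier results of these data known. Named were the immune subunits and their counterparts, all Psme and Psmg genes, Psmf1, members past a threshold without overlap, the extremes of each class and members below the filter. Psma3, Psma4, Psmb3 and the genes outside the module were named after their values were seen. Alternatives were pseudocounts of 0.1 and 0.01, quantile normalization, median-of-ratios rescaling, no filter, a mean of 5 FPKM as filter, a replicate block, eBayes without trend, only the 6 libraries compared, each library left out and, chosen after seeing the data, a loess correction for length and GC content (span 0.5). Cuffdiff was not repeated. Some genes and sequences are not reported here.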

Additional observations from a re-analysis of the deposited data

How the results depend on the processing

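The count of members past the adjusted threshold at 100 µg/ml against control was 0 with all libraries. It was 1 with quantile normalization (Psmd7), 2 with the length and GC correction (Psma4 and Psmd7) and 1 with that correction and the replicate block (Psmd7), and from 0 to 5 when single libraries were left out, with 5 reached without 100 µg/ml replicate 1. At 100 against 10 µg/ml it was 1 with the correction and 0 to 1 with libraries left out. At 10 µg/ml against control it stayed at 0 in every alternative run. Over all genes, 236 passed at 100 µg/ml, and 106 with the replicate block, 22 with only the 6 libraries compared, 692 with the correction and 31 to 539 with libraries left out. Between the doses 95 passed, and 13, 6, 272 and 8 to 191 in the same order. At 10 µg/ml none passed (limma, 366 at an unadjusted p under 0.05), and 4 without the filter, 1 with only the 6 libraries and 0 to 2 with libraries left out.

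With libraries left out, the median of the cap at 100 µg/ml ran from -0.040 (without 100 µg/ml replicate 1) to 0.056, and between the doses the median of the core assembly genes ran from -0.14 (without 100 µg/ml replicate 1) to 0.091 and that of the activators from -0.094 to 0.022 (without 100 µg/ml replicate 3). The median of all members at 100 µg/ml ran from -0.10 to 0.022, of the immune subunits from -0.11 to 0.062, of the core assembly genes from -0.17 to 0.047 and of the activators from -0.12 to 0.011, while that of the core ran from -0.20 to -0.049. Between the doses the core ran from -0.12 to 0.047. No value that passed the threshold changed sign. Of 713 values of single genes under alternatives, 30 that did not pass had another sign, 12 no longer passed and 13 newly passed. Rad23b and Ufd1l kept their direction but passed in 11 of 17 alternatives each, with adjusted p from 0.013 to 0.12 and from 0.015 to 0.090. The causes were not tested. Pairing of libraries by replicate number was not evident. Of 9 same-numbered pairs, 1 had a correlation of deviations over 0.1 (range -0.088 to 0.15), namely replicate 1 of control and of 100 µg/ml. With 3 libraries per group, each with its own trend with length, low correlations do not exclude a shared batch. With the replicate block, 0 members passed in each comparison. FPKM without counts sets the limit for Psmb9 and other low members, where few fragments carry a value.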
